A study of Mus musculus with 8 samples.

Results

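Integrins and the receptors that work beside them hold blood-forming stem cells in the bone marrow and guide them back to it. An integrin is a pair of 1 alpha and 1 beta subunit that binds matrix proteins such as fibronectin, laminin and collagen, or counter-receptors such as VCAM1 and ICAM1 on neighbouring cells. The chemokine receptor CXCR4 draws these cells towards CXCL12 made by marrow stroma, while CD44 and the selectin ligand PSGL-1 serve binding to hyaluronan and rolling on vessel walls. Junctional adhesion molecules and cadherins add contacts between cells. The genes described here are 35 members of this group, 14 integrin alpha subunits, 7 beta subunits and 14 other adhesion and homing receptors, chosen as a list by name. All 35 matched a probe set annotated with exactly 1 gene symbol, out of 22180 such genes on the array, and the probe set with the highest mean over all arrays stood for a gene. The mean signal passed the filter on dim probe sets for 33 of the 35. Only Itgb6 and Itgb8 lay below it.

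The series asked how Chd7 is expressed in adult mouse stem and progenitor cells, and compared 3 populations that were sorted from marrow of C57/Bl6 mice, with an age of 8 weeks in the labels. Multipotent progenitors (MPP, 3 arrays) were sorted as CD48+CD150-CD34+. Hematopoietic stem cells of the short-term kind (ST-HSC, 3 arrays) were CD48-CD150+CD34+. Those of the long-term kind (LT-HSC, 2 arrays, numbered 1 and 3) were CD48-CD150+CD34-. All 3 populations were Lin-Sca1+Kit+, and no genetic change is named for any of them. The descriptions say that no treatment was given, whereas a protocol shared by all samples speaks of 2 hours in DMSO, of primary recipients isolated after 1 year and of secondary recipients sampled after 3 months. This conflict was not resolved here. No label says whether arrays came from separate mice or from pooled mice, so a p-value here reflects no more than the scatter among these arrays, and that scatter may be technical.

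The values are log2 signals after RMA, which removes background, equalises the distributions of the arrays and combines all probes of a probe set into 1 value. A difference, written as X versus Y, is the log2 mean of the first population less that of the second, and adjusted p-values come from limma. Array medians nevertheless ran from 4.95 to 5.22 and interquartile ranges from 2.49 to 3.06, so the distributions of the deposited values were not equal. The number of arrays limits the precision. Replicate 1 of LT-HSC and replicate 1 of ST-HSC lay apart, with median correlations of 0.956 and 0.968 with the other arrays, against 0.976 to 0.985 for the rest. Slamf1, which encodes the gate marker CD150, averaged 5.06 ± 0.36 in MPP (SD, n = 3), 7.34 ± 0.11 in ST-HSC (SD, n = 3) and 7.77 ± 0.01 in LT-HSC (SD, n = 2). Cd34, the marker that splits ST-HSC from LT-HSC, read 9.55, 10.15 and 10.07 in ST-HSC, against 8.50 and 10.20 in LT-HSC. LT-HSC replicate 3, though sorted as CD34-, thus read above every ST-HSC array in this transcript. Cd48, whose product was gated as positive in MPP only, read 7.84, 6.65 and 6.96 in MPP, 7.49, 6.51 and 6.57 in ST-HSC, and 5.92 and 6.63 in LT-HSC. MPP and ST-HSC thus overlapped in this transcript (difference 0.29, adjusted p = 0.999). In sorted bulk samples, fewer cells of a type and less RNA per cell cannot be told apart.

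No adhesion receptor was called in any comparison in the reported fit, which has no replicate block. Some alternative fits without a block did call members, such as 4 in MPP versus ST-HSC with array weights. With the replicate number as a block over 8 arrays, 1 was, Itgb5 in MPP versus ST-HSC (adjusted p = 0.0182) and in the F test (0.0129). In limma's linear model over all 8 arrays, at a Benjamini-Hochberg adjusted p under 0.05 over 17576 genes, 0 of 33 members passed in MPP versus LT-HSC, 0 in ST-HSC versus LT-HSC, 0 in MPP versus ST-HSC and 0 in the F test over all populations. Among all tested genes the same rule called 0.125% in MPP versus LT-HSC, 0.933% in ST-HSC versus LT-HSC, 0.193% in MPP versus ST-HSC and 0.905% in the F test, so a count of 0 among 33 is near the background. At an unadjusted p under 0.05, 8 members passed in MPP versus LT-HSC (background 10.6%), 1 in ST-HSC versus LT-HSC (background 11.1%), 8 in MPP versus ST-HSC (background 6.89%) and 7 in the F test (background 10.5%). Of the 8 in MPP versus LT-HSC, 7 were higher in MPP, where 6.96% of all genes were, and 1 was lower, where 3.6% were. The higher ones were Itga2, Itgal, Itgam, Itgb5, Cxcr4, Cd44 and Selplg, and the lower one was Jam3. In MPP versus ST-HSC 7 were higher in MPP (background 3.63%), Itga9, Itgal, Itgam, Itgb5, Cd44, Selplg and Alcam, and Jam3 was lower (background 3.26%). Both comparisons use the same MPP arrays. The single member at this level in ST-HSC versus LT-HSC was Cxcr4, higher in ST-HSC (background 7.81%, and 3.25% for lower).

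The promoters of Itgb5, Cxcr4 and Cd44 are shown because these are, of the 5 members with an unadjusted p under 0.01 in a comparison, the 3 matched by symbol in RefSeq's promoter table. In all, 20 of the 35 members matched. Each line gives the 250 bases before the transcript start on the gene's strand, build GRCm38.p6, with matches to 4 short motifs in capitals.
Itgb5, chr16:33829415-33829664, plus strand: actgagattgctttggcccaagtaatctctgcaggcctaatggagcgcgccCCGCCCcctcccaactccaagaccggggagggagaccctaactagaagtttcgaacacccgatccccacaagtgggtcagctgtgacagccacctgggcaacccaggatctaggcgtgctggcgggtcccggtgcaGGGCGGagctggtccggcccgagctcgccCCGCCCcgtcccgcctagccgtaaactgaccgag
Cxcr4, chr1:128592300-128592549, minus strand: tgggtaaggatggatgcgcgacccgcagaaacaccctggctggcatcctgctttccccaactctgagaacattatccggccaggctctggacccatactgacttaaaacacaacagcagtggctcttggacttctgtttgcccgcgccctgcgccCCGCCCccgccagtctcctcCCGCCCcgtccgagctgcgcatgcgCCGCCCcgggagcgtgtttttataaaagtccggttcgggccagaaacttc
Cd44, chr2:102901666-102901915, minus strand: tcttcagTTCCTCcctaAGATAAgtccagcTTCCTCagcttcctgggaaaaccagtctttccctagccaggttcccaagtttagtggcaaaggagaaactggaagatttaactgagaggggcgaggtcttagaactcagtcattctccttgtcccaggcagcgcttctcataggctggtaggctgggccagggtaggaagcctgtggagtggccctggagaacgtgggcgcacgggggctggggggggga
Both strands were searched for the core that RUNX factors bind (TGTGGT) and for an ETS core (GAGGAA). The search also covered a GATA site (AGATAA) and the GC box (GGGCGG). Of 32851 RefSeq windows of this length, 14% held the RUNX core, 23.3% the ETS core, 9.99% the GATA site and 32.7% the GC box. The windows of Itgb5 and Cxcr4 each held 3 GC boxes and none of the other letters. Cd44 held 2 matches to the ETS core and 1 to the GATA site, and no GC box. No matches overlapped each other. The GC content was 65.2% for Itgb5, 61.2% for Cxcr4 and 56.4% for Cd44. A match is a description of these letters only.

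The largest difference among the members was that of Itgb5, the beta5 subunit that pairs with alpha v to bind vitronectin. It read 6.78, 6.77 and 6.45 in MPP, 5.63, 5.11 and 5.04 in ST-HSC, and 4.66 and 5.90 in LT-HSC. All MPP arrays lay above all arrays of both stem cell populations, while the LT-HSC arrays lay on either side of those of ST-HSC. The MPP versus ST-HSC difference was 1.41, a 2.65-fold higher signal (SE 0.29, 95% interval 0.77 to 2.04, adjusted p = 0.0958). For MPP versus LT-HSC it was 1.39 (SE 0.32, 95% interval 0.68 to 2.10, adjusted p = 0.171), and for ST-HSC versus LT-HSC -0.01 (SE 0.32, adjusted p = 0.991). Within arrays of the same number, MPP versus ST-HSC was 1.15, 1.66 and 1.41 for replicates 1, 2 and 3. With the replicate number as a block, Itgb5 passed in MPP versus ST-HSC (adjusted p = 0.0182 over 8 arrays and 0.00312 over the 2 populations), as 1 of 33 members, while the count over all genes moved from 34 to 267 and 289. It also passed with only these 2 populations in the fit (0.0182) and with array weights (0.0011). Leaving out LT-HSC replicate 1 or 3 repeated the 2-population result, since a lone LT-HSC array adds no scatter, and is not separate support. The Itgb5 difference was 1.59 without both arrays that stood apart and 1.53 without all replicate 1 arrays. Over all alternatives its adjusted p lay between 0.0011 and 0.352. In MPP versus LT-HSC the difference was 2.01 without LT-HSC replicate 3 (adjusted p = 0.0123) and 0.77 without LT-HSC replicate 1 (adjusted p = 0.759), with the lone LT-HSC array assumed to vary like the other populations. With the block it was 1.40 over 8 arrays (adjusted p = 0.0538) and 1.34 over these 2 populations (adjusted p = 0.00208). The 2 pairs of arrays correlated at -0.16 and 0.099, and their Itgb5 differences were 2.12 for replicate 1 and 0.56 for replicate 3. The p-value of this 2-population block fit rests on a spread estimated over all genes. It does not measure how unlike the 2 pairs were for Itgb5.

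**Figure D1:**
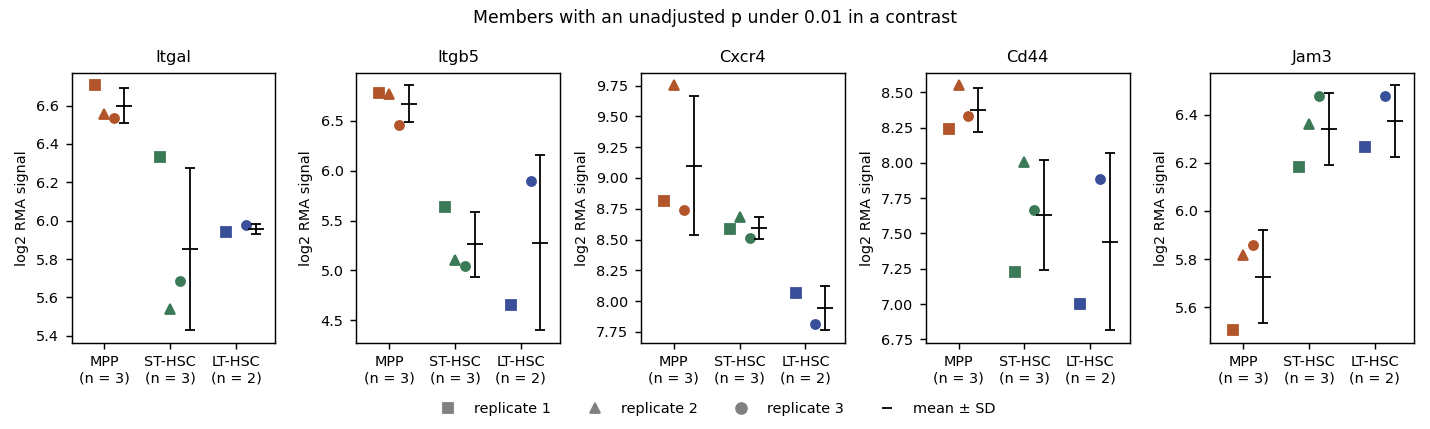
Log2 RMA signal of the 5 members with an unadjusted p under 0.01 in a comparison, by population. Each symbol is 1 array, shaped by replicate number, and the bar beside it is the mean ± SD (n = 3 for MPP, 3 for ST-HSC and 2 for LT-HSC). All MPP arrays of Itgal, Itgb5, Cxcr4 and Cd44 lie above, and those of Jam3 below, the arrays of both other populations.

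Cxcr4 and Cd44 had the next largest differences. Cxcr4 encodes the receptor for CXCL12, the main retention signal of the marrow niche. Its arrays read 8.81, 9.75 and 8.74 in MPP, 8.59, 8.69 and 8.51 in ST-HSC, and 8.07 and 7.81 in LT-HSC. No array of one population overlapped another, in the order MPP above ST-HSC above LT-HSC, a pattern held by 0.256% of all tested genes and by Cxcr4 alone among the 33. The gap between the lowest MPP and the highest ST-HSC array was narrow, and MPP replicate 2 stood above the other MPP arrays. The MPP versus LT-HSC difference was 1.16, or 2.23-fold (SE 0.28, adjusted p = 0.187). The other differences were 0.65 for ST-HSC versus LT-HSC (SE 0.28, adjusted p = 0.418) and 0.51 for MPP versus ST-HSC (SE 0.25, adjusted p = 0.787), which was 0.18 without MPP replicate 2. Its call did not change under any alternative, with adjusted p from 0.0598 to 0.619 in MPP versus LT-HSC.

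Cd44 encodes the hyaluronan receptor. It read 8.24, 8.55 and 8.33 in MPP, 7.22, 8.01 and 7.66 in ST-HSC, and 6.997 and 7.89 in LT-HSC. The MPP arrays lay above all others, and the replicate 1 arrays were the lowest of each population. The differences were 0.93 for MPP versus LT-HSC (SE 0.28, adjusted p = 0.299) and 0.74 for MPP versus ST-HSC (SE 0.25, adjusted p = 0.444). For ST-HSC versus LT-HSC it was 0.19 (SE 0.28, adjusted p = 0.844). Cd44 passed in MPP versus LT-HSC without LT-HSC replicate 3, at 1.38 (adjusted p = 0.0432), and was at 0.49 without LT-HSC replicate 1 (adjusted p = 1).

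Selplg encodes PSGL-1, the ligand of P-selectin and the other selectins. It read 9.52, 9.21 and 9.53 in MPP, 8.90, 8.98 and 9.21 in ST-HSC, and 8.75 and 9.14 in LT-HSC. The lowest MPP and the highest ST-HSC array were both at 9.21 after rounding, and MPP did not overlap either population. The differences were 0.48 for MPP versus LT-HSC (SE 0.20, adjusted p = 0.443), 0.39 for MPP versus ST-HSC (SE 0.18, adjusted p = 0.708) and 0.08 for ST-HSC versus LT-HSC (SE 0.20, adjusted p = 0.909). A further probe set of Selplg gave 0.56, 0.42 and 0.14 for the same comparisons. All 3 homing and rolling receptors thus had positive differences in each comparison, with medians of 0.93 in MPP versus LT-HSC, 0.51 in MPP versus ST-HSC and 0.19 in ST-HSC versus LT-HSC, beside medians over all genes of 0.06, 0.01 and 0.02. For Selplg, ST-HSC versus LT-HSC turned to -0.06 with quantile normalization.

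Among the leukocyte integrins that share the beta2 subunit, Itgal, the alpha chain of LFA-1, a receptor for ICAM1 and ICAM2, read 6.70, 6.56 and 6.54 in MPP, 6.33, 5.54 and 5.68 in ST-HSC, and 5.94 and 5.98 in LT-HSC. MPP overlapped neither population, and ST-HSC replicate 1 lay closest to it. The differences were 0.75 for MPP versus ST-HSC (SE 0.20, adjusted p = 0.235), 0.64 for MPP versus LT-HSC (SE 0.23, adjusted p = 0.379) and -0.11 for ST-HSC versus LT-HSC (SE 0.23, adjusted p = 0.897). In MPP versus ST-HSC it passed with array weights (adjusted p = 0.00504), without both arrays that stood apart (0.0313) and without all replicate 1 arrays (0.0493), within a range of 0.00504 to 0.66. Within replicate numbers 1, 2 and 3 this difference was 0.37, 1.02 and 0.85.

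Itgb2, the shared beta2 chain, read 7.35, 6.61 and 7.16 in MPP, 7.74, 6.92 and 7.28 in ST-HSC, and 6.62 and 6.89 in LT-HSC. All ST-HSC arrays lay above those of LT-HSC, and the MPP arrays overlapped both. Differences were 0.28 for MPP versus LT-HSC, 0.56 for ST-HSC versus LT-HSC and -0.28 for MPP versus ST-HSC (SE 0.24 to 0.27, adjusted p from 0.482 to 0.999). Itgam, the alpha chain of Mac-1 on myeloid cells, read 6.58, 6.08 and 6.08 in MPP, 6.26, 5.501 and 5.19 in ST-HSC, and 5.80 and 5.30 in LT-HSC. Its replicate 1 array was the highest of each population. Itgax, the alpha chain of the dendritic cell integrin CD11c, stayed between 3.72 and 4.22 on all arrays, close to the filter at 3.88. Of these 4 genes, Itgal and Itgam had positive and Itgax had negative differences in MPP versus LT-HSC together with no overlap. Among all tested genes, 24.7% had no overlap in this comparison.

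Vcam1, the niche counter-receptor of the alpha4 beta1 integrin, was another gene highest in the replicate 1 array of every population. It read 5.71, 5.02 and 4.56 in MPP, 6.59, 5.23 and 5.10 in ST-HSC, and 5.57 and 4.67 in LT-HSC. Its differences were -0.03 for MPP versus LT-HSC, 0.52 for ST-HSC versus LT-HSC and -0.55 for MPP versus ST-HSC (SE 0.41 to 0.46, adjusted p from 0.704 to 0.987). Without ST-HSC replicate 1, ST-HSC versus LT-HSC was 0.047 and MPP versus ST-HSC -0.073. Vcam1 and Itgam were the 2 of 33 members with this replicate 1 pattern, beside 4.89% of all tested genes. Markers of some other cells followed the same arrays. The 15 granulocyte and monocyte markers averaged 6.81, 5.82 and 5.95 in MPP, 7.30, 5.81 and 5.55 in ST-HSC, and 7.05 and 5.32 in LT-HSC, and 13 of the 15 were highest in replicate 1 of every population. The 13 tested endothelial and stromal markers averaged 6.18, 5.498 and 5.73 in MPP, 6.97, 5.75 and 5.78 in ST-HSC, and 6.18 and 5.84 in LT-HSC, with 5 of 13 in that pattern. Cxcl12 itself reached 8.14 in ST-HSC replicate 1, where the other 7 arrays lay between 5.33 and 6.001. The 10 tested macrophage and dendritic cell markers averaged 5.89 to 6.23 in MPP, 5.60 to 6.24 in ST-HSC and 5.59 to 5.81 in LT-HSC, with 4 of 10 in that pattern. Also in that pattern were 6 of 8 erythroid and 2 of 7 B cell markers. Only 1 of 8 megakaryocyte and platelet markers was, and 0 of 9 T and NK cell markers. RMA values have no zero, so absence of a marker could not be read from them, and the part of these cells in the signals of Vcam1, Itgam and Itgb2 was not tested.

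**Figure D2:**
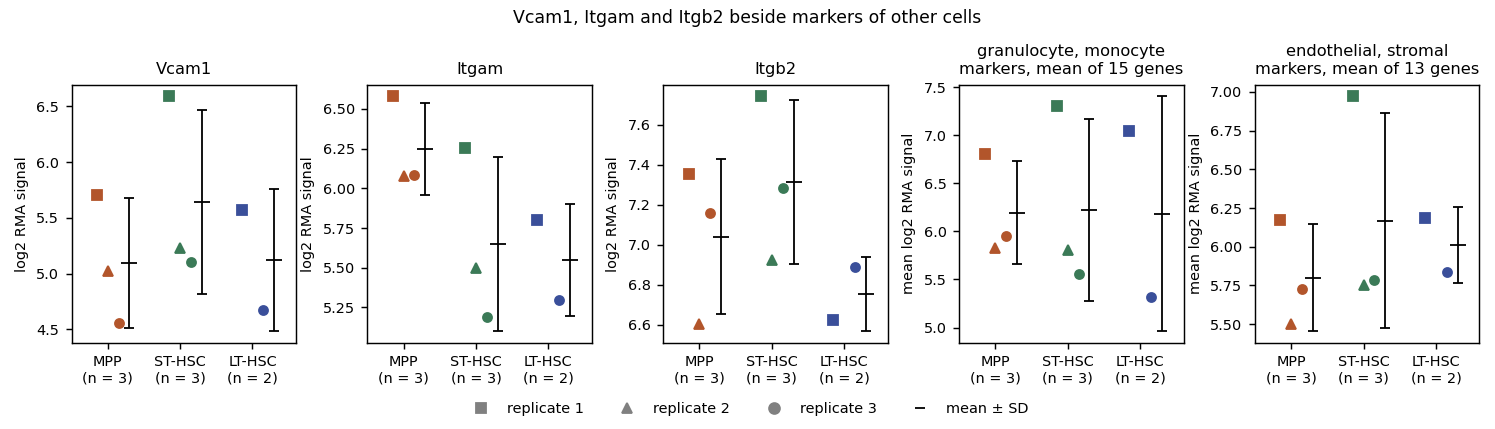
Log2 RMA signal of Vcam1, Itgam and Itgb2 and the mean log2 signal of 2 marker lists, by population. Symbols are arrays shaped by replicate number and bars are mean ± SD. The replicate 1 arrays (squares) are highest in every population for Vcam1, Itgam and both marker lists, while Itgb2 has its lowest LT-HSC value, 6.62, in replicate 1.

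Itgb1, Itga4 and Itga6, integrins well known for anchoring stem cells, held no call between the populations in the reported fit. Itgb1 encodes the beta1 chain shared by most matrix-binding integrins. It read 9.004, 8.83 and 8.83 in MPP, 9.002, 9.06 and 9.07 in ST-HSC, and 8.59 and 8.97 in LT-HSC, a range of 0.48 over all arrays. The ST-HSC arrays lay just above both LT-HSC arrays, and MPP overlapped each population. The differences were 0.11 for MPP versus LT-HSC (95% interval -0.28 to 0.50), 0.26 for ST-HSC versus LT-HSC (-0.12 to 0.65) and -0.15 for MPP versus ST-HSC (-0.50 to 0.19), with SE of 0.16 to 0.18 and adjusted p of 0.614 to 0.999. The sign in MPP versus LT-HSC turned with quantile normalization, to -0.06.

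Itga4, the alpha4 chain that binds VCAM1 and fibronectin, read 8.54, 7.95 and 8.34 in MPP, 8.23, 8.32 and 8.25 in ST-HSC, and 7.59 and 8.30 in LT-HSC. LT-HSC replicate 3 lay among the values of both other populations, and replicate 1 lay below them. Differences were 0.33, 0.32 and 0.01 for MPP versus LT-HSC, ST-HSC versus LT-HSC and MPP versus ST-HSC (SE 0.21 to 0.24, adjusted p from 0.6 to 0.999). Itga6, the alpha6 chain of laminin receptors, read 8.23, 8.22 and 8.70 in MPP, 8.35, 8.71 and 8.83 in ST-HSC, and 8.49 and 8.93 in LT-HSC. Its 3 populations overlapped, with differences of -0.33, -0.08 and -0.25 in the same order (SE 0.20 to 0.23, adjusted p from 0.593 to 0.999). Across the members, a 95% interval lay wholly within a 2-fold change in either direction for 22 of 33 genes in MPP versus LT-HSC, 26 in ST-HSC versus LT-HSC and 25 in MPP versus ST-HSC. Itgb1, Itga4 and Itga6 were among these in every comparison. In MPP versus LT-HSC, however, the interval reached 0.86 for Itga4 and -0.83 for Itga6. Without LT-HSC replicate 3, the Itga4 difference there was 0.69.

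The remaining integrins showed smaller or uneven differences. Itga2, the alpha2 chain of a collagen receptor, read 6.49, 6.10 and 6.37 in MPP, 5.96, 5.97 and 6.44 in ST-HSC, and 5.29 and 5.95 in LT-HSC, and neither MPP nor ST-HSC overlapped LT-HSC. Its MPP versus LT-HSC difference was 0.70 with an unadjusted p of 0.0142, for an adjusted p of 0.361. Itga9, the alpha9 chain that binds VCAM1, tenascin and osteopontin, read 5.95, 5.89 and 5.87 in MPP, 5.35, 5.73 and 5.57 in ST-HSC, and 5.81 and 5.71 in LT-HSC. Its MPP arrays lay above all others by a small margin. Itgav, the partner of beta5, read 7.36, 7.41 and 7.38 in MPP, 6.92, 7.29 and 7.23 in ST-HSC, and 7.22 and 7.25 in LT-HSC. Its MPP versus ST-HSC difference of 0.24 was small beside that of Itgb5, and a further Itgav probe set gave 0.28.

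Itga7, another laminin receptor chain, read 5.37, 5.14 and 5.08 in MPP and 5.83 and 5.40 in LT-HSC, without overlap. Itga3, which also pairs with beta1 on laminin, reached 6.05 in MPP replicate 2 against 4.63 to 5.08 on the other arrays. Itga5, the fibronectin receptor chain, averaged 6.58 ± 0.37 in MPP, 6.89 ± 0.08 in ST-HSC and 6.93 ± 0.35 in LT-HSC (SD). Itgb7, which pairs with alpha4 or alpha E, averaged 6.46 ± 0.06 in MPP, 6.09 ± 0.33 in ST-HSC and 6.29 ± 0.25 in LT-HSC. None of these passed in a comparison.

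Itga1, Itga8, Itgae and Itgb4 stayed between 3.65 and 4.98 on every array. Itgb4, the partner of alpha6 in epithelial anchoring structures, varied by 0.26 in all. Itgb6 lay between 3.75 and 4.04 and was not tested. Itgb8 read 3.66 to 3.82 in MPP, 3.66 to 3.78 in ST-HSC, and 4.36 and 3.99 in LT-HSC. Its LT-HSC arrays lay above the others, though its mean of 3.84 was below the filter.

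By family, the 4 tested beta2-group genes had a median difference of 0.46 in MPP versus LT-HSC, and the 4 of the VCAM1, MAdCAM1 and E-cadherin group 0.15. The 6 collagen and laminin subunits had a median of -0.05 and the 4 tested subunits of the RGD group 0.09, where RGD is the peptide these integrins recognise. The median over all genes was 0.06. Over all 33 members the median was 0.14 with 20 positive, against 57.2% positive among all genes. ST-HSC versus LT-HSC had a member median of 0.03 with 18 positive, and MPP versus ST-HSC 0.01 with 17 positive, where 52% and 51.7% of all genes were positive. Median centring raised the positive counts to 24, 25 and 18 for MPP versus LT-HSC, ST-HSC versus LT-HSC and MPP versus ST-HSC. Quantile normalization gave 22, 18 and 18.

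**Figure D3:**
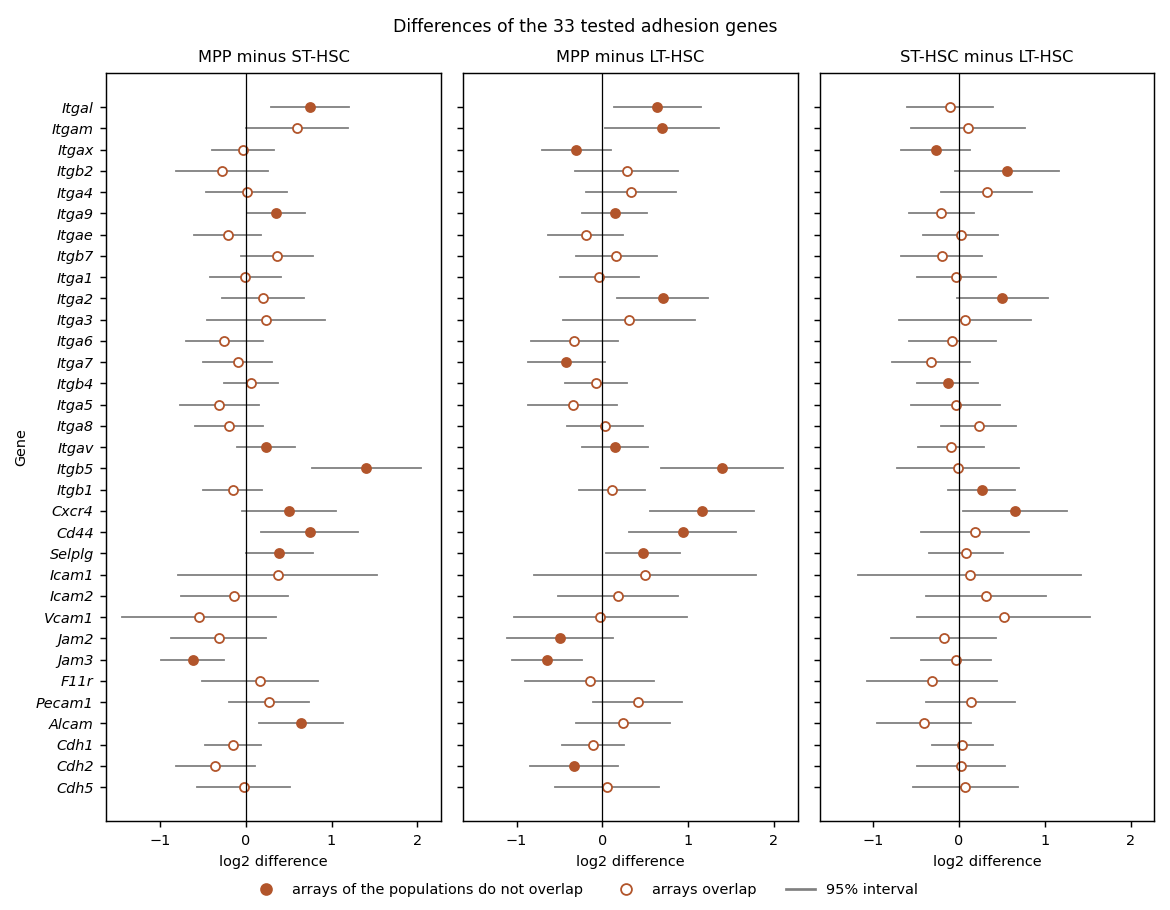
Log2 differences of the 33 tested members in 3 comparisons, with limma 95% intervals as lines. Filled points mark members whose arrays do not overlap between the 2 populations: 14 in MPP versus LT-HSC, 9 in MPP versus ST-HSC and 6 in ST-HSC versus LT-HSC. Itgb5 lies farthest from 0 in both comparisons that hold MPP.

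Groups of arrays did not overlap for 14 of 33 members in MPP versus LT-HSC, where 24.7% of all genes did not. The counts were 9 in MPP versus ST-HSC (background 14.2%) and 6 in ST-HSC versus LT-HSC (background 23.3%). By mean, 15 of 33 members were highest in MPP, 9 in ST-HSC and 9 in LT-HSC, beside 35.2%, 30% and 34.8% of all genes. LT-HSC replicate 1 was below LT-HSC replicate 3 for 22 of 33 members, and for 59.7% of all genes. The members' spread within populations had a median SD of 0.29, against 0.23 over all genes.

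Jam3 was the member with the clearest difference towards the stem cells. It encodes JAM-C, a junctional adhesion molecule whose partner on neighbouring cells is JAM-B, the product of Jam2. Jam3 read 5.503, 5.82 and 5.86 in MPP, 6.18, 6.36 and 6.48 in ST-HSC, and 6.27 and 6.48 in LT-HSC. All MPP arrays lay below all others, while ST-HSC and LT-HSC overlapped. The differences were -0.65 for MPP versus LT-HSC, a 1.57-fold lower signal (SE 0.19, adjusted p = 0.271), -0.61 for MPP versus ST-HSC (SE 0.17, adjusted p = 0.231) and -0.03 for ST-HSC versus LT-HSC (SE 0.19, adjusted p = 0.969). Within replicate numbers 1, 2 and 3, MPP versus ST-HSC was -0.68, -0.54 and -0.62. It passed with array weights (adjusted p = 0.0227, within a range of 0.0227 to 0.648).

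Jam2 read 4.99, 4.79 and 4.91 in MPP, 4.56, 5.54 and 5.53 in ST-HSC, and 5.21 and 5.58 in LT-HSC. MPP lay below LT-HSC, but ST-HSC replicate 1 was the lowest array of all. Its differences were -0.50 for MPP versus LT-HSC, -0.18 for ST-HSC versus LT-HSC and -0.31 for MPP versus ST-HSC (SE 0.25 to 0.28, adjusted p from 0.535 to 0.994). F11r, which encodes the related JAM-A, read 8.08, 8.32 and 8.33 in MPP, 7.30, 8.59 and 8.35 in ST-HSC, and 8.06 and 8.73 in LT-HSC, with a replicate 1 array lowest in each.

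Alcam, the activated leukocyte cell adhesion molecule, read 7.72, 7.70 and 7.91 in MPP, 7.08, 7.15 and 7.16 in ST-HSC, and 7.05 and 8.02 in LT-HSC. The ST-HSC arrays were tight and lay below all MPP arrays, whereas the LT-HSC arrays differed from each other by more than the populations did. The MPP versus ST-HSC difference was 0.64 (SE 0.22, adjusted p = 0.456), the MPP versus LT-HSC difference 0.24 (SE 0.25, adjusted p = 0.711) and the ST-HSC versus LT-HSC difference -0.40 (SE 0.25, adjusted p = 0.584). In MPP versus ST-HSC it passed with array weights (adjusted p = 0.0176, within a range of 0.0176 to 1).

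Pecam1, which encodes the endothelial and leukocyte molecule CD31, read 8.22, 8.30 and 8.08 in MPP, 7.76, 8.13 and 7.88 in ST-HSC, and 7.39 and 8.19 in LT-HSC. The populations overlapped, with differences of 0.41, 0.14 and 0.27 for MPP versus LT-HSC, ST-HSC versus LT-HSC and MPP versus ST-HSC (SE 0.21 to 0.24, adjusted p from 0.539 to 0.994). Icam1, a ligand of LFA-1 that inflammatory signals induce, was the least even member within populations, with a pooled SD of 0.92. It read 6.13, 7.86 and 7.04 in MPP, 5.57, 7.52 and 6.81 in ST-HSC, and 5.87 and 7.15 in LT-HSC, and replicate 1 was lowest in every population. Together with Itgav, Cd44, Jam3 and F11r it made up the 5 members with that order, beside 10.6% of all genes. Icam2, a constitutive LFA-1 ligand, averaged 7.12 ± 0.29 in MPP, 7.25 ± 0.62 in ST-HSC and 6.93 ± 0.29 in LT-HSC (SD).

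The cadherins lay low in all populations. Cdh2 encodes N-cadherin, whose part in the stem cell niche has been debated. It read 3.71, 4.002 and 3.54 in MPP, 4.54, 3.96 and 3.83 in ST-HSC, and 4.009 and 4.15 in LT-HSC. The MPP arrays lay below those of LT-HSC by less than 0.01, and both overlapped ST-HSC. Its mean of 3.97 was just above the filter, and the differences were -0.33, 0.03 and -0.36 for MPP versus LT-HSC, ST-HSC versus LT-HSC and MPP versus ST-HSC (SE 0.21 to 0.23, adjusted p from 0.597 to 0.98). Cdh5, the endothelial VE-cadherin, read 4.03, 4.65 and 4.68 in MPP, 4.82, 4.27 and 4.34 in ST-HSC, and 4.74 and 4.06 in LT-HSC. All 3 populations overlapped, with differences of 0.05, 0.08 and -0.02 in that order (SE 0.25 to 0.28, adjusted p from 0.945 to 0.999). Cdh1, E-cadherin, stayed between 4.65 and 5.001. A further Cdh1 probe set gave 0.15 in MPP versus LT-HSC, where the main one gave -0.11.

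**Figure D4:**
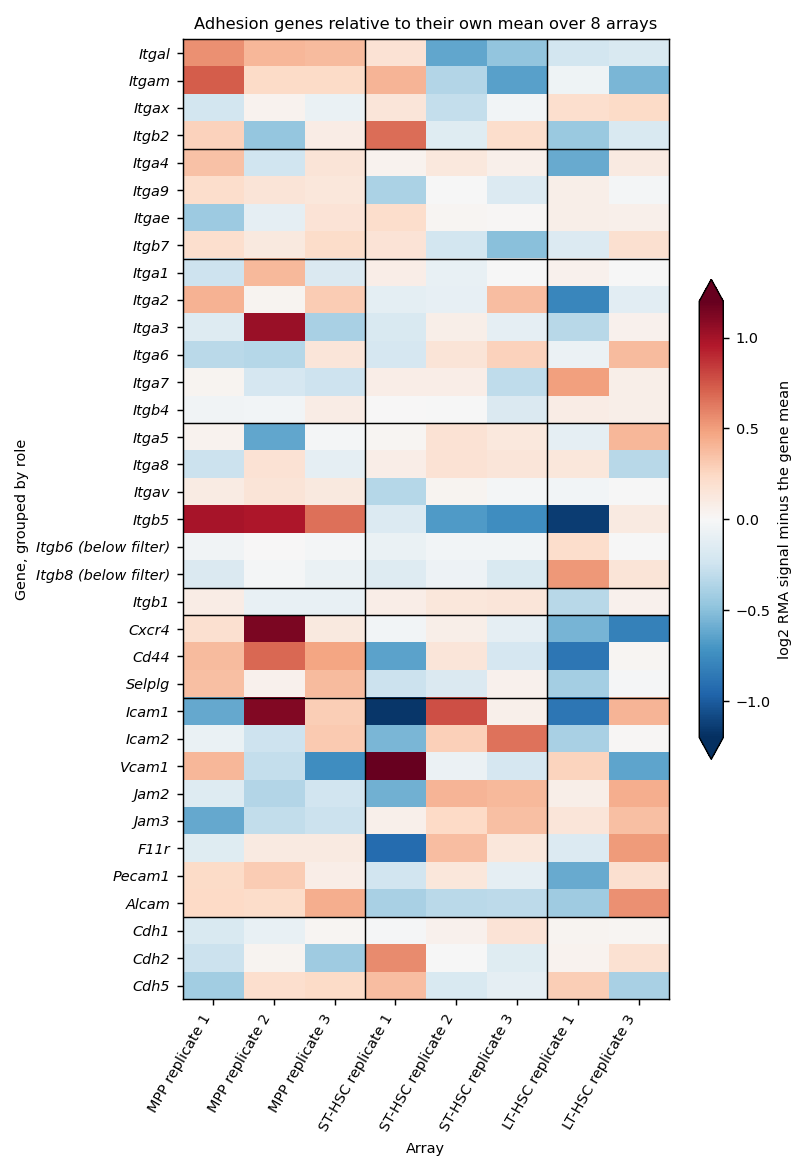
Signal of all 35 members on each array relative to the gene's own mean over 8 arrays (log2, red above and blue below, colours end at 1.2), with genes grouped by role and lines between groups and populations. Cxcr4, Cd44, Itgb5 and Itgal are above their mean in all MPP arrays, and ST-HSC replicate 1 and LT-HSC replicate 1 differ from their own populations for many members, such as Vcam1, Icam1 and F11r.

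Genes that work with these receptors included some that passed, most of whose calls did not hold under every alternative. Of 6 tested genes in a list of other integrin subunits and integrin-related genes, Itga2b alone passed, higher in ST-HSC than in either other population. It encodes the alpha chain of the platelet fibrinogen receptor. Itga2b averaged 6.40 ± 0.13 in MPP, 7.57 ± 0.06 in ST-HSC and 6.39 ± 0.13 in LT-HSC (SD). Its differences were 1.18 for ST-HSC versus LT-HSC (SE 0.17, adjusted p = 0.00814) and -1.17 for MPP versus ST-HSC (SE 0.15, adjusted p = 0.0141). The call in ST-HSC versus LT-HSC was lost under 4 of 21 alternatives, both arrays that stood apart left out (adjusted p = 0.0923), array weights (0.0512), and leaving out LT-HSC replicate 1 (0.058) or ST-HSC replicate 3 (0.0507). That in MPP versus ST-HSC was lost under 6 of 21, median centring (0.0615) and leaving out ST-HSC replicate 2 (0.0888) or 3 (0.0973) or MPP replicate 1 (0.0548), 2 (0.0949) or 3 (0.077). The difference itself stayed between 1.09 and 1.29 in the first and between -1.25 and -1.10 in the second. Itgb3, which pairs with Itga2b and with the member Itgav, averaged 5.74 ± 0.14 in MPP, 6.76 ± 0.44 in ST-HSC and 6.62 ± 0.19 in LT-HSC, with a MPP versus ST-HSC difference of -1.02 that did not pass (SE 0.22, adjusted p = 0.106). The 8 tested megakaryocyte and platelet markers averaged 5.65 to 6.02 in MPP, 7.59, 6.61 and 6.82 in ST-HSC, and 6.32 and 6.60 in LT-HSC. These averages were also highest in ST-HSC, though ST-HSC replicate 2 (6.609) was level with LT-HSC replicate 3 (6.601). The part of these markers in the Itga2b difference was not tested. Of these 8, 1 rose in ST-HSC versus LT-HSC, the platelet glycoprotein gene Gp5 at 1.44 (adjusted p = 0.0194). In MPP versus ST-HSC 2 fell, Gp5 at -1.81 (adjusted p = 0.0141) and the platelet chemokine gene Pf4 at -2.00 (adjusted p = 0.034), and in MPP versus LT-HSC 1 fell, Vwf, which encodes von Willebrand factor. Vwf was lower in ST-HSC than in LT-HSC, at -0.75 without a call (adjusted p = 0.248), where 7 of the 8 markers had positive differences. Of 21 alternatives, 8 lost the Gp5 call in ST-HSC versus LT-HSC and 4 that in MPP versus ST-HSC, 10 lost that of Pf4 and 7 that of Vwf, median centring among them for all but the first, and the arrays that stood apart left out among them for the first and for Pf4.

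Of 34 tested genes for integrin activation and adhesion adaptors, 0 rose and 1 fell in MPP versus LT-HSC and in ST-HSC versus LT-HSC, and 0 passed in MPP versus ST-HSC. The gene that fell was Tns2, a tensin that links integrin tails to actin, at 6.05 ± 0.20 in MPP, 6.58 ± 0.20 in ST-HSC and 8.10 ± 0.21 in LT-HSC (SD). Its ST-HSC versus LT-HSC difference was -1.52 (SE 0.20, adjusted p = 0.00603). That call was lost without LT-HSC replicate 1 (-1.37, adjusted p = 0.0766), without both arrays that stood apart (-1.30, 0.128) and without all replicate 1 arrays (0.0774), while the call in MPP versus LT-HSC held under all 21 alternatives (adjusted p at most 0.0424). The list's medians were 0.26, 0.06 and 0.07 for MPP versus LT-HSC, ST-HSC versus LT-HSC and MPP versus ST-HSC. Of 15 tested cadherin and junction partners, the neural cell adhesion molecule Ncam2 fell in both comparisons against LT-HSC. It averaged 3.86 ± 0.04 in MPP, 4.01 ± 0.19 in ST-HSC and 5.46 ± 0.26 in LT-HSC. The MPP mean lay below the filter at 3.88 and the ST-HSC mean close to it, so both were near the floor. Ncam2, with a mean of 4.32 over all arrays, was not tested under the filter at the 50th percentile, 5.04. Its ST-HSC versus LT-HSC difference was -1.45 (SE 0.19, adjusted p = 0.00574), lost under 1 of 20 alternatives, both arrays that stood apart left out (-1.74, adjusted p = 0.0545). The call in MPP versus LT-HSC was lost under 3 of 20, median centring (0.0636) and leaving out MPP replicate 1 (0.0516) or 3 (0.0525). None of 17 tested genes in a list of selectins, selectin ligand enzymes and other surface molecules passed. At an unadjusted p under 0.05 there were 2, 3 and 3 for MPP versus LT-HSC, ST-HSC versus LT-HSC and MPP versus ST-HSC, where 10.6%, 11.1% and 6.89% of all genes were. Of 17 tested niche ligands 0 passed, with 0, 1 and 1 at that level. The 8 erythroid, 7 B cell and 9 T and NK cell markers tested also held no call.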

How the data were processed

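Total RNA was extracted with Trizol, amplified with the Ovation Pico WTA System V2 and labelled with the Encore Biotin Module, per the labels' protocols. Such amplification can add spread between arrays. The deposited table holds log2 values of 33649 probe sets on 8 single-colour arrays, made by the authors with RMA per the submitters' processing notes. Its version and software are not given in the sources used here. Its log2 base was read from the values, which run from 2.05 to 12.9, and log2 values of dim probe sets understate differences.

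Names came from the platform annotation: 23521 probe sets had 1 symbol, 1814 several and 8314 none here, giving 22180 genes. Genes with a mean at or above the 25th percentile of all probe sets, 3.88, were tested (17576). limma 3.58.1 under R 4.3.3 fitted 1 mean per population to all 8 arrays, with 5 residual and 5.93 prior degrees of freedom. P-values were adjusted by Benjamini-Hochberg over all tested genes. The fit was tested on simulated data. A member got array values, differences, SE and adjusted p where its unadjusted p was under 0.01 in a comparison, or where it belonged to a set of 15 well-known stem cell adhesion genes. For other members given array by array, such as Itga2, Itgam, Itga9, Itgav, Icam1 and F11r, this was chosen after their values were seen. The members, lists and alternatives were chosen with earlier results of these data known. Each list was described by counts and a median.

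Replicate numbers are shared between populations. Deviations from the group means correlated at 0.15, 0.23 and 0.21 between MPP and ST-HSC arrays of number 1, 2 and 3, so the numbers may pair these arrays, which no label states. Between ST-HSC and LT-HSC they correlated at 0.54 for number 1 and 0.475 for number 3, but also at 0.32 for ST-HSC replicate 2 with LT-HSC replicate 3. With 2 LT-HSC arrays the deviations are equal and opposite, so these values are not independent and cannot settle a pairing. The reported fit has no replicate term, and the block was an alternative. Sequences came from RefSeq (GRCm38.p6).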

Additional observations from a re-analysis of the deposited data

How the results depend on the processing

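The outlying arrays are LT-HSC replicate 1 and ST-HSC replicate 1. The adhesion members were not called under quantile normalization, median centring, any filter, the mean over probe sets, the intensity trend or the interquartile range as a covariate. Member calls appeared in MPP versus ST-HSC with only these 2 populations (1), the replicate block (1 over 8 arrays, 1 over 2 populations), array weights (4), without the pair of outlying arrays (2) and all replicate 1 arrays left out (2). In the F test they numbered 1 with the block, 3 with array weights, 2 and 1 with those arrays left out. The block over 2 populations called 1 in MPP versus LT-HSC and 2 in ST-HSC versus LT-HSC, Itgb2 and Vcam1. Only 2 numbers are shared in these comparisons, so these p-values rest mostly on a spread estimated over all genes. The correlations between arrays cannot settle the pairing. This block changed no other member call. Without 1 replicate at a time, members called ranged from 0 to 2 in MPP versus LT-HSC, 0 to 1 in MPP versus ST-HSC and 0 to 2 in the F test. With an LT-HSC array left out, the lone one is assumed to vary like the other populations. 

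Over all genes, the 22 calls of MPP versus LT-HSC became 37 with quantile normalization, 5 with median centring, 157 and 266 with the block, 47 with the covariate, 9 with array weights, 14 without replicate 1 arrays, and 6 to 615 without 1 replicate. The 164 of ST-HSC versus LT-HSC became 104 with median centring, 100 with 2 populations, 473 and 1128 with the block, 61 with weights, 0 without the pair of outlying arrays (1348 at an unadjusted p under 0.05), 70 without replicate 1 arrays, and 17 to 825 without 1 replicate. The 34 of MPP versus ST-HSC (12 higher, 22 lower) became 1 with median centring (0 higher, 1 lower), 71 with 2 populations, 267 and 289 with the block, 197 with the covariate, 525 with weights, 78 and 104 with arrays left out, and 1 to 71 without 1 replicate. The 159 of the F test became 65, 566, 276, 386 and 88 with median centring, the block, the covariate, weights and the pair of outlying arrays left out, and 29 to 520 without 1 replicate. The cause of these shifts was not tested.

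For 16 members and 3 comparisons, 48 differences were recomputed under up to 21 alternatives. Of 999 values 892 kept sign and call, 18 became calls and 89 changed sign, and none of the 48 was a call to begin with. The filters, the intensity trend, a fit of only 2 populations and leaving out an array of the population not compared cannot change a difference. Under these the sign was fixed and only the call could move, so the 892 does not measure how steady the signs were. Under quantile normalization, the turned values were, in MPP versus LT-HSC, for Itgb1 -0.058, Vcam1 0.035, and in ST-HSC versus LT-HSC, for Itgb5 0.13, Selplg -0.056, Pecam1 -0.022. Under median centring, the turned values were, in MPP versus LT-HSC, for Vcam1 0.096, and in ST-HSC versus LT-HSC, for Itga6 0.032, Itgal 0.0036, Itgb5 0.096, Jam3 0.079. Under the replicate block over 8 arrays, the turned values were, in MPP versus LT-HSC, for Vcam1 0.094, and in ST-HSC versus LT-HSC, for Cdh2 -2.68e-06. Under the replicate block over 2 populations, the turned values were, in MPP versus LT-HSC, for Vcam1 0.011, Cdh5 -0.047, and in ST-HSC versus LT-HSC, for Itgal 0.049, Itgb5 0.062. Under the covariate, the turned values were, in MPP versus LT-HSC, for Itgb1 -0.033, Vcam1 0.50, Alcam -0.063, and in ST-HSC versus LT-HSC, for Itgal 0.018, Cd44 -0.11, Selplg -0.11, Pecam1 -0.095, and in MPP versus ST-HSC, for Itga4 -0.019, Cdh5 0.016. Under array weights, the turned values were, in ST-HSC versus LT-HSC, for Itga6 0.0096, Jam2 0.042, Jam3 0.016, Cdh2 -0.11, Cdh5 -0.048, and in MPP versus ST-HSC, for Cdh5 0.20. Under the pair of outlying arrays left out, the turned values were, in MPP versus LT-HSC, for Itga4 -0.024, Itgb1 -0.078, Vcam1 0.42, Alcam -0.25, and in ST-HSC versus LT-HSC, for Itga4 -0.017, Cd44 -0.051, Selplg -0.048, Pecam1 -0.18, Cdh2 -0.26, and in MPP versus ST-HSC, for Itga4 -0.0066, Cdh5 0.15. Under all replicate 1 arrays left out, the turned values were, in MPP versus LT-HSC, for Itga4 -0.15, Itgb1 -0.13, Itgb2 -0.0034, Vcam1 0.12, Pecam1 -0.0034, Alcam -0.22, and in ST-HSC versus LT-HSC, for Itga4 -0.017, Cd44 -0.051, Selplg -0.048, Pecam1 -0.18, Cdh2 -0.26, and in MPP versus ST-HSC, for Itga4 -0.14, Cdh5 0.36. Without 1 replicate at a time, the ranges that crossed 0 were, in MPP versus LT-HSC, Itga4 -0.024 to 0.69, Itgb1 -0.078 to 0.30, Vcam1 -0.47 to 0.42, Cdh5 -0.29 to 0.39, Alcam -0.25 to 0.72, and in ST-HSC versus LT-HSC, Itga4 -0.035 to 0.68, Itga6 -0.30 to 0.15, Itgal -0.35 to 0.049, Itgb5 -0.63 to 0.60, Cd44 -0.25 to 0.63, Selplg -0.11 to 0.28, Jam2 -0.36 to 0.14, Jam3 -0.14 to 0.074, Pecam1 -0.27 to 0.54, Cdh2 -0.19 to 0.17, Cdh5 -0.27 to 0.42, Alcam -0.89 to 0.081, and in MPP versus ST-HSC, Itga4 -0.12 to 0.18, Cdh5 -0.14 to 0.19. Without crossing 0, leaving out ST-HSC replicate 1 moved Itgb2 in ST-HSC versus LT-HSC to 0.35 and Cdh2 in MPP versus ST-HSC to -0.14, leaving out LT-HSC replicate 1 moved Selplg, Pecam1 and Itga6 in MPP versus LT-HSC to 0.28, 0.0088 and -0.55, and leaving out 1 array moved Jam2 in MPP versus ST-HSC to between -0.64 and -0.15.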
